A study of Mus musculus with 6 samples.

Results

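Cyclins, cyclin-dependent kinases (CDKs) and CDK inhibitors were followed in germinal vesicle (GV) oocytes with and without Zar1. Members were all genes whose symbol begins with Ccn, a letter from a to l and a digit, with Cdk and a digit, or with Cdkn1 or Cdkn2, apart from the Cdk5rap genes, the cyclin B genes, Cdk1 and Cdkn1a. The pattern found 47 of 53700 gene rows, namely 11 cyclins, 18 CDKs, 6 CDK inhibitors and 12 genes that match by name only (activators, binding proteins, pseudogenes and an antisense gene). PolyA RNA was sequenced from pools of 10 GV oocytes of C57BL/6N background, with 3 libraries of wild-type (Zar +/+) and 3 of Zar1 knockout (Zar -/-) oocytes. No treatment, age or Cre driver is given in the labels, and neither is the part of Zar1 that was removed. ZAR1 binds RNA in the oocyte, and maternal mRNA kept near mitochondria is the subject of the series. The comparison asks which of these mRNAs differed in level in oocytes without Zar1. A level here is that of polyA RNA, so differences in tail length and in amount of mRNA cannot be told apart.

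A typical CDK is a kinase that is active only when bound to a cyclin. CDKs of the cell cycle are held back by inhibitors of the CIP/KIP and INK4 families. Cyclins D, E and A with CDK4, CDK6 and CDK2 drive somatic cells from G1 through S phase, while CDK7 to CDK13 and CDK19 act mainly on RNA polymerase II and its cofactors. A GV oocyte is arrested in meiotic prophase with little or no transcription, so its mRNAs for these proteins are largely a maternal store that is translated or degraded later.

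Each library held between 32126555 and 39148833 counts in genes. Zar1 itself lay between 379 and 395 CPM (a gene's count relative to its library's total, which was scaled with TMM factors) in wild type and between 1.98 and 6.18 in knockout, as labelled. The 10 oocyte markers were all present and summed to between 17548 and 18838 CPM in wild type and between 18875 and 20632 in knockout. They were not steady one by one, since 6 rose, 1 fell and 3 were not called (70% called, against 33.4% of all genes). Their log2 fold changes ran from -0.32 (Bmp15) to 0.61 (Zp3). The haemoglobin genes Hba-a1 and Hbb-bs, in contrast, had 0 counts in all 6 libraries. The 9 theca, stroma and blood markers to which they belong summed to between 25.3 and 27.1 CPM in wild type and between 30.1 and 34.8 in knockout, mostly from Pecam1, which rose from 24.2 ± 0.611 to 30.5 ± 2.15 (edgeR adjusted p = 0.0351). The part of these marker differences in the members' changes was not tested. The labels number the replicates but do not tie them to animals, and p-values cover no more than the spread among the 6 pools. In such bulk samples fewer cells of a type and less RNA per cell cannot be told apart, and a level is a share of its library.

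Of the 47 members, 39 had enough counts to be tested. In the knockout 11 rose, 5 fell and 23 did not pass (edgeR quasi-likelihood test, Benjamini-Hochberg adjusted p of 0.05 over all 16473 genes). Those that rose were Ccna2, Ccnd3, Ccne1, Ccng1, Cdk5, Cdk7, Cdk9, Cdk10, Cdk13, Cdk16 and Cdk2ap1, and those that fell were Ccng2, Ccnl2, Cdk6, Cdkn1b and Cdkn2aipnl. Called members were 41.0% of those tested, against 33.4% of all genes. Members that rose made up 28.2%, against 14.9% of all genes, and members that fell 12.8%, against 18.5%. The median log2 fold change was 0.10 over the 39 members and 0.00745 over all genes, and these shares are descriptions with no test. The groups did not overlap in 19 of the 39 members, against 47.8% of all genes.

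Many of these calls lay close to the threshold. The counts of rises were 5, 6 and 6 without wild-type replicate 1, 2 or 3 and 7 without knockout replicate 1. The counts of falls were 3 and 2 without wild-type replicate 1 or 2. Over all genes the share called also went down, from 33.4% to 23.9%, 23.2% and 22.2% without wild-type replicate 1, 2 or 3. It was 27.2% without knockout replicate 1. The calls of Ccne1, Ccng2, Cdk9, Cdk13, Cdk2ap1 and Cdkn2aipnl held in all 15 alternatives that kept the threshold, the 6 left-out libraries among them. Just inside the threshold stood Ccnd3 (adjusted p = 0.0470), Cdk7 (0.0470) and Cdk6 (0.0499), and the nearest outside it was Cdk12 (0.0985).

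**Figure D1:**
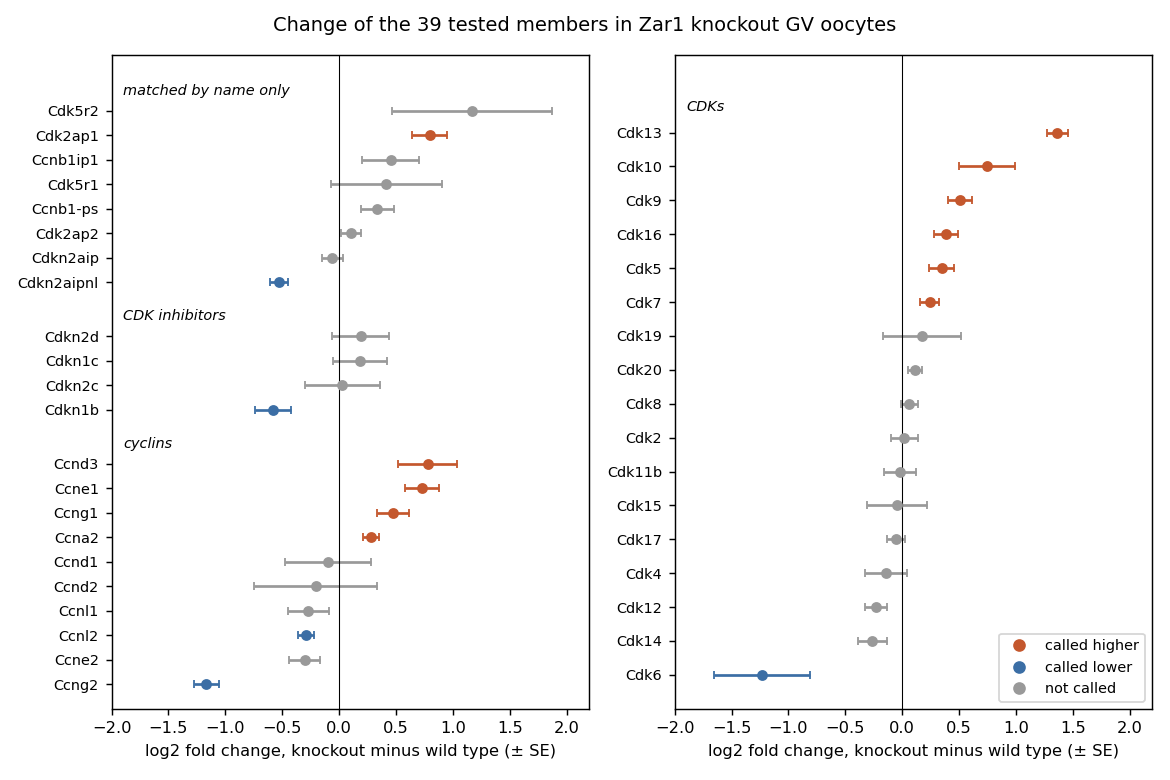
Log2 fold change (knockout minus wild type) with its standard error for the 39 tested members, in cyclins, CDK inhibitors and genes matched by name only (left) and CDKs (right), coloured by call at an edgeR adjusted p of 0.05. Cdk13 stands highest among called genes at 1.36, and Cdk6 (-1.23) and Ccng2 (-1.17) stand lowest.

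Cytoplasmic polyadenylation lengthens the tail of stored oocyte mRNAs during maturation, and it is directed by the cytoplasmic polyadenylation element (CPE) near the polyadenylation signal. The ends of the annotated transcripts are shown because they are where such storage signals lie. The CPE was searched as TTTTAT or TTTTAAT in the last 100 bases of the longest protein-coding transcript of each gene, on the transcript's strand (GENCODE M21, GRCm38). It was found in 9 of 38 members with a usable transcript, against 19.6% of 12335 tested genes. Among the members that rose it was in 2 of 11, Ccne1 and Cdk9, among those that fell in 0 of 5, and among those not called in 7 of 22. Of all tested genes it was in 18.5% of those that rose and 23.8% of those that fell. These are matches of letters, and the ends used in these oocytes were not analysed here.

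The windows below are 30 bases of the last exon's 3' untranslated region with the CPE in capitals. Ccne1 (chr7:38097993-38098022, minus strand) and Cdk9 (chr2:32707506-32707535, minus) rose in the knockout. Cdk2 (chr10:128698021-128698050, minus) and Cdk20 (chr13:64441707-64441736, plus) are shown as members with a CPE that were not called. In Ccne1 the TTTTAAT form runs into the polyadenylation signal AATAAA and shares 3 bases with it.
Ccne1: tgtctatcaatTTTTAATaaagataatact
Cdk9: ttaaaaggagaaTTTTATtttgttttgtta
Cdk2: agaaaatatttcTTTTATgattttcttctc
Cdk20: tggagggctgtgTTTTATtgcagtgccaaa

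The next windows are of members with no CPE in the last 100 bases whose calls held in all 15 alternatives. They hold the polyadenylation signal in capitals, searched as AATAAA or ATTAAA in the last 40 bases. Cdk2ap1, whose call also held, had neither a CPE nor a signal there. Cdk13 (chr13:17710318-17710347, minus) had the largest rise, and Ccng2 (chr5:93276187-93276216, plus) and Cdkn2aipnl (chr11:51977298-51977327, plus) had the falls of smallest adjusted p. The signal was in 29 of the 38 members and in 77.4% of all tested genes.
Cdk13: aatgacataaagAATAAAaaatgtattgct
Ccng2: tcataattcaaaAATAAAaatattaatgaa
Cdkn2aipnl: tctacaacccccAATAAAacagcttttcca

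Wild-type levels were compared between genes per kilobase of exon. Bases shared with genes on the other strand stayed in these lengths, as in Ccnd1 (1100 bases), Cdkn2aip (667), Cdk4 (641) and Cdkn1c (625). So did the 233 bases that Ccnb1ip1 shares with Rpph1 on the same strand. Cdk20 was the most abundant member at 129.5 ± 3.02 CPM per kb (mean ± SD, n = 3), followed by Cdk7 at 97.7 ± 4.63, Cdk2ap2 at 81.2 ± 3.28 and Cdk11b at 79.7 ± 3.74. Cdk2ap2 and Cdk11b lay within each other's spread. Cdk20 encodes a kinase known from cilia, and Cdk7 the kinase of the general transcription factor TFIIH that also activates other CDKs. Among cyclins Ccnl2 (48.3 ± 2.09) and Ccna2 (42.3 ± 1.46) stood highest. Ccnl1 (24.0 ± 6.09) and Ccne1 (16.4 ± 1.52) followed them.

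The CDK inhibitors among the members, which do not include Cdkn1a, were low in level. The highest was Cdkn1b at 3.71 ± 0.242 CPM per kb, then Cdkn2d at 2.14 ± 0.174, Cdkn1c at 1.39 ± 0.264 and Cdkn2c at 1.09 ± 0.420. Some cyclins and CDKs lay in the same range, such as Ccnd3 at 1.95 ± 0.355 and Cdk6 at 0.966 ± 0.190. Summed over class in CPM, the 6 inhibitors held 25.9 ± 2.77 in wild-type oocytes and 21.1 ± 2.45 in knockout. The 11 cyclins held 453 ± 24.0 and 458 ± 11.8, and the 18 CDKs 1554 ± 26.5 and 1719 ± 105. The CDK sum was above 1639 in every knockout library and at most 1583 in wild type, while the cyclin and inhibitor sums overlapped between the groups.

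**Figure D2:**
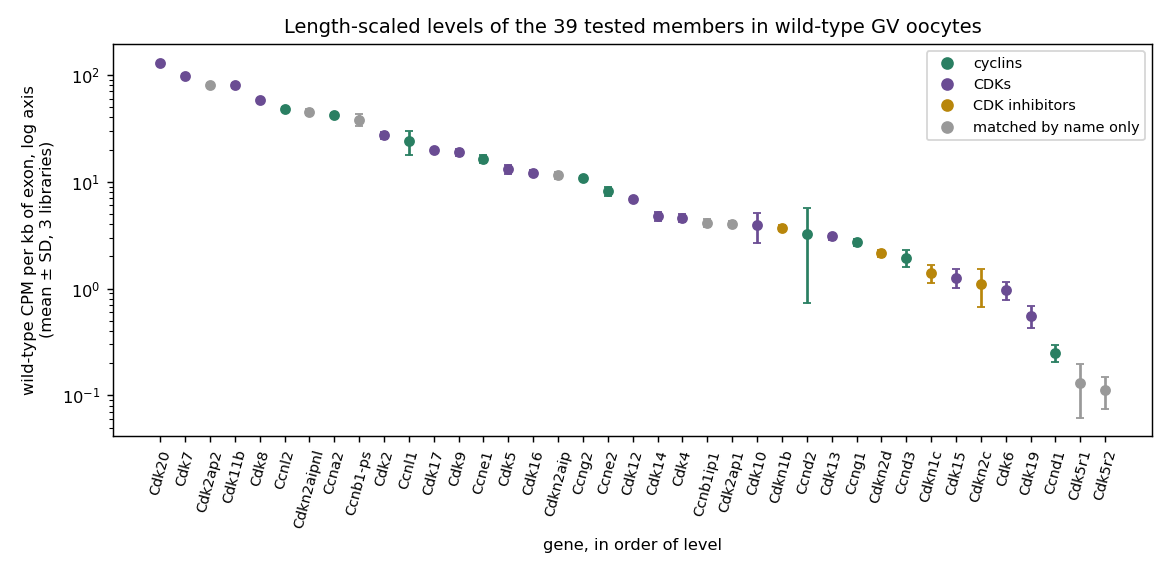
Wild-type level of the 39 tested members in CPM per kilobase of exon on a log axis, as mean ± SD of 3 libraries, in order of level and coloured by class. CDKs run from 129.5 (Cdk20) down to 0.554 (Cdk19), and no inhibitor exceeds 3.71.

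Of the G1, S and G2 cyclins, Ccne1, Ccna2 and Ccnd3 rose and none fell, out of 6 tested, where 14.9% of all genes rose and 18.5% fell. Ccne1 (ENSMUSG00000002068.17), cyclin E1, the partner of CDK2 at entry into S phase, had 32.4, 36.1 and 30.1 CPM in wild-type replicates 1 to 3 and 46.9, 48.1 and 68.4 in knockout replicates 1 to 3. Every knockout library lay above every wild-type library, with replicate 3 well above the other two. The log2 fold change was 0.73 ± 0.15 (SE, adjusted p = 0.00672), a 1.66-fold rise, and the adjusted p was at most 0.0354 when any library was left out.

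Ccne2, the paralog that encodes cyclin E2, did not follow. Its levels were 27.5, 27.8 and 23.1 CPM in wild type and 24.1, 21.01 and 18.4 in knockout, and the groups overlapped (a log2 fold change of -0.30 ± 0.14, adjusted p = 0.122). Within a library Ccne1 stood at 1.88, 2.08 and 2.08 times Ccne2 per kilobase in wild type and at 3.12, 3.66 and 5.93 times in knockout. The ratio was higher in all 3 knockout libraries (exact two-sided permutation p = 0.1, the smallest that 3 against 3 libraries allow, and 0.15 adjusted over the 6 pairs compared). The 6 pairs were chosen after their values were seen, which the adjustment does not cover. The annotated exons of Ccne2 share 609 bases with Ints8 on the other strand, and the strand setting of the counting is not stated.

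Ccna2 (ENSMUSG00000027715.10), cyclin A2, which binds CDK2 and CDK1, was the most abundant of these cyclins. It had 148, 154 and 158 CPM in wild type and 188, 186 and 184 in knockout, with no overlap and little spread on either side. The change was small, a log2 fold change of 0.28 ± 0.07 (adjusted p = 0.0118), and missed the threshold without wild-type replicate 1 (0.0607). Its exons share 510 bases with Exosc9 on the other strand. The testis cyclin A gene Ccna1 was not tested, with 0 counts in all wild-type libraries and 5, 0 and 1 in knockout.

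Cyclin D mRNAs, whose proteins bind CDK4 and CDK6, were low and variable. Ccnd3 had 5.76, 4.14 and 4.41 CPM in wild type and 11.2, 5.93 and 7.47 in knockout, so the groups were separated by a narrow gap (a log2 fold change of 0.78 ± 0.26, adjusted p = 0.0470). The call was lost without wild-type replicate 1 (0.0568), 2 (0.147) or 3 (0.140) and without knockout replicate 1 (0.157) or 3 (0.0604), and in limma-voom (0.0644), with library sizes alone (0.0628) and with GC and length offsets (0.0953). Its exons share 361 bases with Bysl on the other strand. Ccnd1 had 0.929 ± 0.169 CPM in wild-type oocytes and 0.868 ± 0.268 in knockout (a log2 fold change of -0.10 ± 0.38).

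Ccnd2 varied more between libraries of 1 genotype than between genotypes. It had 40.5, 15.8 and 8.63 CPM in wild type and 10.7, 14.3 and 31.3 in knockout, highest in wild-type replicate 1 and knockout replicate 3 (a log2 fold change of -0.21 ± 0.54, adjusted p = 0.805). Cyclin D2 is the main D cyclin of granulosa cells, which surround the oocyte. Granulosa and cumulus markers were therefore set beside it, 12 genes that together held 106, 110.0 and 118 CPM in wild type and 135, 138 and 127 in knockout. By that sum wild-type replicate 1 and knockout replicate 3 were the lowest of their groups, the opposite of Ccnd2. Most of it came from Cyp19a1 (35.6 to 53.8) and Nr5a2 (49.6 to 84.2). The other 10, grouped after their values were seen, summed to 13.6, 13.2 and 8.35 CPM in wild type and 8.39, 13.0 and 15.2 in knockout. By these 10 alone, wild-type replicate 1 and knockout replicate 3 were the highest of their groups, as for Ccnd2. In wild type that order rests on 13.6 against 13.2 CPM, where Ccnd2 had 40.5 against 15.8. Of 9 markers tested, Nr5a2 and Has2 rose, Kitl fell and 6 were not called (33.3% called, against 33.4% of all genes). Kitl went from 4.02 ± 0.321 to 0.797 ± 0.472 CPM (edgeR adjusted p = 0.00222). The defining markers Amh (0 to 4 counts) and Foxl2 (0 to 7 counts) were near 0, Fshr had 47 counts in knockout replicate 2 and at most 8 elsewhere, and no marker was at 0 in all libraries. The part of these markers in the level of Ccnd2 was not tested.

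The G cyclins, which bind protein phosphatase 2A rather than a cell cycle CDK, moved in opposite directions. Ccng2 (ENSMUSG00000029385.15), which is associated with withdrawal from the cell cycle, had 34.5, 34.6 and 33.0 CPM in wild type and 16.2, 15.1 and 14.0 in knockout. All knockout libraries lay under 17 CPM and all wild-type libraries near 34. The log2 fold change was -1.17 ± 0.11 (adjusted p = 0.000117), a 2.25-fold fall, with an adjusted p of at most 0.00129 over the left-out libraries. Ccng1, a p53 target, had 9.81, 10.01 and 8.72 CPM in wild type and 13.2, 12.3 and 14.2 in knockout (a log2 fold change of 0.47 ± 0.14, adjusted p = 0.0302). That call did not hold without wild-type replicate 1 (0.0762), 2 (0.0654) or 3 (0.121), without knockout replicate 1 (0.0636) or 3 (0.0623), or without a filter on low counts (0.0799). Per kilobase Ccng1 stood at 0.252, 0.257 and 0.235 times Ccng2 in wild type and 0.720, 0.721 and 0.898 times in knockout (exact permutation p = 0.1, adjusted 0.15). The groups of Ccng1 and Ccng2 already lay apart in opposite directions, so this p was fixed in advance.

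The L cyclins, partners of CDK11 in pre-mRNA splicing, were both abundant. Ccnl2 had 115, 124 and 115 CPM in wild type and 95.9, 98.8 and 94.7 in knockout, all knockout libraries lower (a log2 fold change of -0.29 ± 0.07, adjusted p = 0.0151). It was not called without wild-type replicate 2 (0.0647) or with GC and length offsets (-0.15, 0.150). Ccnl1 had 44.2, 67.3 and 44.6 CPM in wild type and 41.7, 50.2 and 37.7 in knockout, where wild-type replicate 2 stood apart (a log2 fold change of -0.27 ± 0.18, adjusted p = 0.279). The ratio of Ccnl1 to Ccnl2 was 0.494 ± 0.102 in wild-type oocytes and 0.503 ± 0.0633 in knockout (exact permutation p = 0.8). Their kinase Cdk11b had 261, 276 and 252 CPM in wild type and 229, 222 and 329.7 in knockout, so knockout replicates 1 and 2 lay below and replicate 3 above all wild-type libraries (a log2 fold change of -0.02 ± 0.14). Without knockout replicate 3 it was called lower (-0.22, adjusted p = 0.0314).

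**Figure D3:**
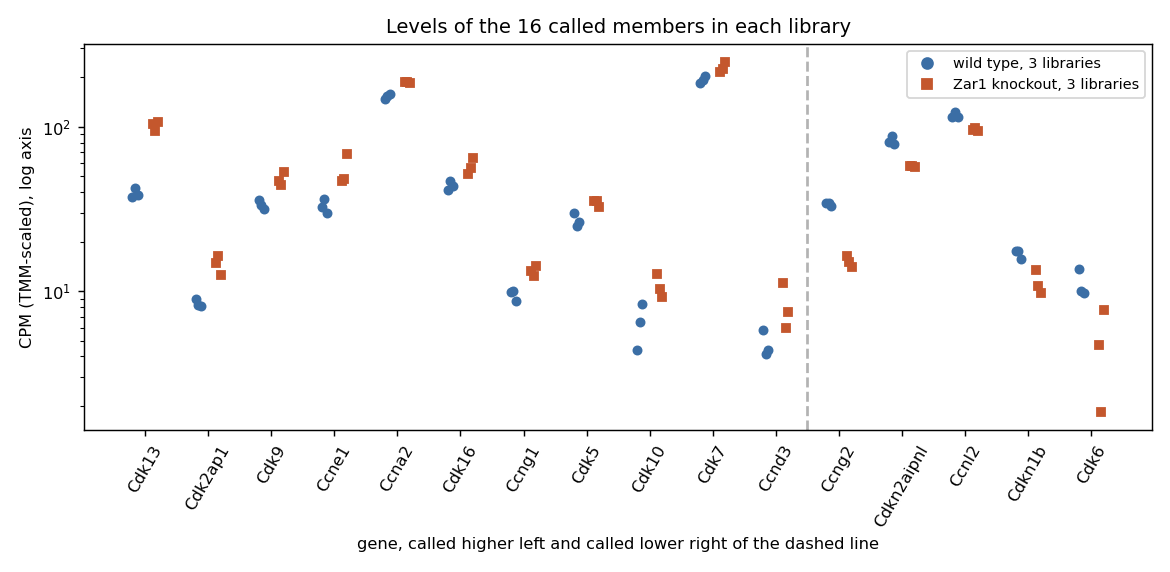
CPM in each of the 3 wild-type and 3 Zar1 knockout libraries for the 16 called members on a log axis, those that rose to the left of the dashed line and those that fell to the right. Cdk13 and Ccng2 show the clearest separation, while Cdk6 in knockout runs from 1.82 to 7.72.

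Among the CDKs of the cell cycle Cdk6 fell and Cdk2 and Cdk4 were not called, a share called close to the 33.4% of all genes. Cdk2 had 60.4, 70.6 and 66.7 CPM in wild type and 63.6, 58.7 and 77.9 in knockout (a log2 fold change of 0.02 ± 0.12). Cdk4 had 9.44 ± 0.897 CPM in wild-type oocytes and 8.56 ± 1.71 in knockout (-0.14 ± 0.18). Cdk6 (ENSMUSG00000040274.12), a kinase of the D cyclins, had 13.7, 10.01 and 9.74 CPM in wild type and 4.67, 1.82 and 7.72 in knockout. The groups did not overlap, but the knockout libraries differed from each other about 4-fold (a log2 fold change of -1.23 ± 0.42, adjusted p = 0.0499). The call was lost without wild-type replicate 1 (0.149), 2 (0.0904) or 3 (0.0859) and without knockout replicate 1 (0.118), under RLE (0.0540) or upper-quartile factors (0.0605) and with GC and length offsets (0.0943). Its exons share 368 bases with Gm17590 on the other strand.

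CDKs that act on transcription had 4 of 8 members higher and none lower, where 14.9% of all genes rose and 18.5% fell. Cdk13 (ENSMUSG00000041297.9), which with cyclin K phosphorylates the tail of RNA polymerase II, changed the most. It had 37.6, 42.4 and 38.5 CPM in wild type and 104, 94.3 and 106 in knockout, so the lowest knockout library held more than any wild-type library by over 50 CPM. The log2 fold change was 1.36 ± 0.09 (adjusted p = 2.72e-05), a 2.57-fold rise, and it stayed between 1.32 and 1.65 over the 15 alternatives.

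Cdk12, the other cyclin K kinase, had 46.5, 46.4 and 50.8 CPM in wild type and 39.2, 38.7 and 44.6 in knockout. Its groups did not overlap, yet it did not pass (a log2 fold change of -0.23 ± 0.10, adjusted p = 0.0985), except without knockout replicate 3 (0.0362). Per kilobase Cdk13 stood at 0.439, 0.496 and 0.411 times Cdk12 in wild type and at 1.44, 1.32 and 1.30 times in knockout. The order of the paralogs thus differed between the genotypes in all 6 libraries (exact permutation p = 0.1, adjusted 0.15). The groups of Cdk13 and Cdk12 already lay apart in opposite directions, so this p was fixed in advance. The mRNA of cyclin K itself, Ccnk, fell from 111 ± 2.44 to 73.8 ± 6.65 CPM (a log2 fold change of -0.59 ± 0.09, adjusted p = 0.00111).

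Cdk9 (ENSMUSG00000009555.17) encodes the kinase of P-TEFb, which releases paused RNA polymerase II. It had 36.0, 33.5 and 31.4 CPM in wild type and 46.7, 44.1 and 52.7 in knockout, with no overlap (a log2 fold change of 0.51 ± 0.10, adjusted p = 0.00607). The mRNAs of its cyclins were not called, Ccnt1 at 32.3 ± 1.97 CPM in wild-type oocytes and 31.8 ± 2.48 in knockout and Ccnt2 at 115 ± 4.43 and 115 ± 3.62. Larp7, which keeps P-TEFb inactive in the 7SK particle, had a log2 fold change of -0.18 ± 0.13, and Hexim1 had too few counts to test (4 to 21 per library).

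Cdk7 had 185, 194 and 204 CPM in wild type and 215, 224 and 249.5 in knockout, groups that were close but did not overlap (a log2 fold change of 0.24 ± 0.08, adjusted p = 0.0470). The call was lost without wild-type replicate 1 (0.168), 2 (0.1296) or 3 (0.0884), without knockout replicate 2 (0.0663) or 3 (0.0794), with library sizes alone (0.0713) and without a filter (0.0897). CDK7 works as a trimer with cyclin H and MAT1. The MAT1 gene Mnat1 fell from 64.6 ± 2.08 to 35.1 ± 3.52 CPM (a log2 fold change of -0.88 ± 0.10, adjusted p = 0.000284). Ccnh had 83.5, 84.4 and 87.6 CPM in wild type and 71.1, 132 and 95.5 in knockout, where the libraries spread to both sides (0.22 ± 0.19). Mnat1 stood at 0.123 ± 0.00590 times Cdk7 per kilobase in wild type and 0.0570 ± 0.00982 times in knockout (exact permutation p = 0.1, adjusted 0.15). The groups of Mnat1 and Cdk7 already lay apart in opposite directions, so this p was fixed in advance.

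Cdk10, whose cyclin is cyclin M, had 4.37, 6.47 and 8.38 CPM in wild type and 12.7, 10.3 and 9.14 in knockout. The highest wild-type and the lowest knockout library were less than 1 CPM apart (a log2 fold change of 0.74 ± 0.25, adjusted p = 0.0460). The call did not hold without wild-type replicate 1 (0.129) or 2 (0.113) or without knockout replicate 1 (0.131) or 2 (0.0717). It was also lost with library sizes alone (0.0547) and with GC and length offsets (0.0976). The exons of Cdk10 share 417 bases with Spata2l on the other strand and 186 with Gm45842 on the same strand. The cyclin M gene Ccnq was at 4.83 ± 0.637 CPM in wild-type oocytes and 3.53 ± 0.682 in knockout and was not called (-0.45 ± 0.23). Cdk8 and Cdk19, the alternative kinases of Mediator, were not called. Cdk8 had 175 ± 2.82 CPM in wild-type oocytes and 182 ± 11.4 in knockout (0.06 ± 0.07) but was called higher with GC and length offsets (0.27, adjusted p = 0.0218). Cdk19 had 3.22 ± 0.743 and 3.64 ± 1.496 (0.17 ± 0.34), so Cdk8 was the main form in both genotypes, and their cyclin gene Ccnc had a log2 fold change of 0.23 ± 0.10 (adjusted p = 0.121).

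**Figure D4:**
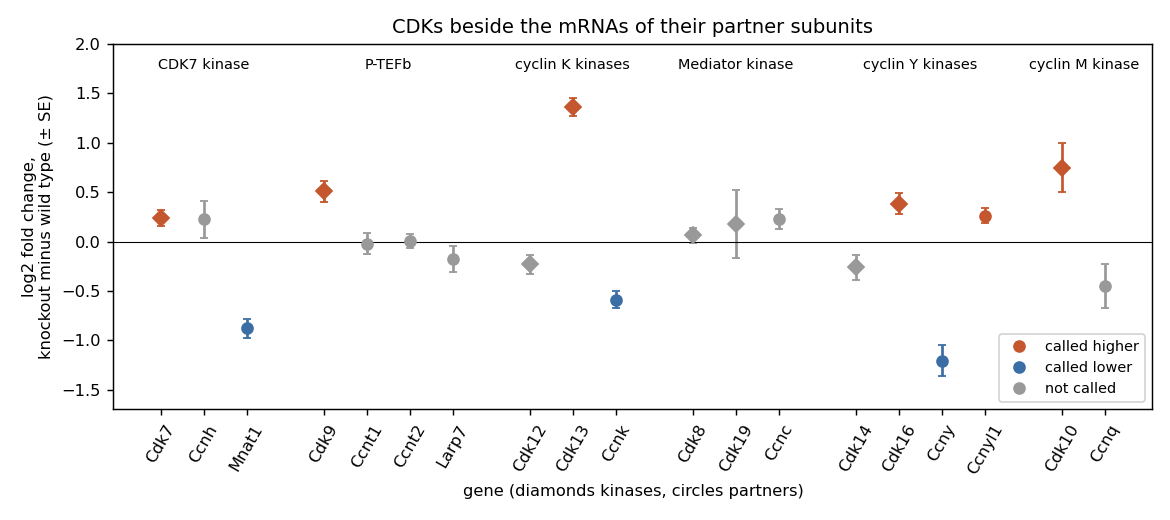
Log2 fold change with its standard error for CDKs (diamonds) and for the mRNAs of their partner subunits (circles), grouped by complex and coloured by call. Cdk7, Cdk13 and Cdk10 lie above zero while Mnat1, Ccnk and Ccnq lie below it, and Ccnt1 and Ccnt2 lie at zero beside Cdk9. Other partners lie on the side of their kinases, as Ccnh with Cdk7, Ccnc with Cdk8, Ccnyl1 with Cdk16 and Ccnk with Cdk12. Ccnq, Ccnh, Ccnc, Cdk8 and Cdk12 were not called, and the partners were chosen after their values were seen.

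The remaining CDKs, which are CDK5, the kinases related to CDK14 to CDK18 and CDK20, had 2 of 6 tested members higher and none lower, a share called close to the 33.4% of all genes. Cdk5, best known as a neuronal kinase, had 29.9, 24.9 and 26.4 CPM in wild type and 35.5, 35.4 and 32.4 in knockout (a log2 fold change of 0.35 ± 0.11, adjusted p = 0.0376). The call was lost without wild-type replicate 2 (0.139) or 3 (0.129), without knockout replicate 1 (0.0918) or 2 (0.0740), with library sizes alone (0.0683), without a filter (0.0795) and with GC and length offsets (0.118). Its activator genes were near the limit of detection, Cdk5r1 at 0.539 ± 0.283 CPM in wild-type oocytes and 0.714 ± 0.131 in knockout and Cdk5r2 at 0.312 ± 0.104 and 0.703 ± 0.669. Cdk5r2 rested on knockout replicate 1 (1.46 CPM), and neither was called (0.42 ± 0.49 and 1.17 ± 0.70).

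Cdk16, a kinase activated by cyclin Y, had 41.5, 46.9 and 43.5 CPM in wild type and 51.3, 56.3 and 64.5 in knockout, with no overlap (a log2 fold change of 0.38 ± 0.11, adjusted p = 0.0233). It was not called without wild-type replicate 1 (0.0945) or 3 (0.0864). Cdk14, another cyclin Y kinase, had 26.6 ± 2.36 CPM in wild-type oocytes and 22.2 ± 2.43 in knockout (-0.26 ± 0.13, adjusted p = 0.143). The cyclin Y genes were called in opposite directions. Ccny fell from 11.4 ± 0.306 to 4.94 ± 0.481 CPM (-1.21 ± 0.16, adjusted p = 0.000592), and the more abundant Ccnyl1 rose from 176 ± 5.44 to 211 ± 16.7 (0.26 ± 0.08, adjusted p = 0.0314).

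Cdk20 (ENSMUSG00000021483.9) had 529, 547 and 524 CPM in wild type and 587, 583 and 563 in knockout. The groups did not overlap, but the change of 0.11 ± 0.06 did not pass (adjusted p = 0.182). Cdk17 (-0.05 ± 0.08) and Cdk15 (-0.04 ± 0.27) were not called either. Cdk18 was not tested, since all of its 12 counts came from knockout replicate 1.

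Of the CDK inhibitors Cdkn1b fell, 3 were not called and 2 were not tested. Called inhibitors were 25% of the 4 tested, against 33.4% of all genes. Cdkn1b (ENSMUSG00000003031.15) encodes p27, which binds cyclin E and cyclin A complexes of CDK2. It had 17.4, 17.6 and 15.6 CPM in wild type and 13.5, 10.7 and 9.71 in knockout, all lower (a log2 fold change of -0.58 ± 0.16, adjusted p = 0.0207). The call was lost without wild-type replicate 1 (0.0673) or 2 (0.0691) and without knockout replicate 2 (0.0525) and with GC and length offsets (-0.35, 0.120). Cdkn1c, the gene of p57, had 2.91, 3.09 and 2.13 CPM in wild type and 3.06, 3.22 and 2.95 in knockout, and the groups overlapped (0.18 ± 0.24). The INK4 genes, whose proteins bind CDK4 and CDK6, stayed low. Cdkn2c (p18) had 2.94 ± 1.13 and 3.00 ± 0.793 CPM (0.03 ± 0.33) and Cdkn2d (p19) had 3.33, 3.29 and 2.87 in wild type and 3.61, 2.71 and 4.51 in knockout, where the libraries fell on both sides (0.19 ± 0.25). Cdkn2b had 17 counts over the wild-type and 9 over the knockout libraries, and Cdkn2a 3 and 1.

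Genes that share only the name pattern had 1 of 8 tested members higher and 1 lower, where 14.9% of all genes rose and 18.5% fell. Cdk2ap1 (ENSMUSG00000029394.12), a CDK2-binding protein and NuRD subunit, had 8.97, 8.17 and 8.07 CPM in wild type and 14.8, 16.4 and 12.6 in knockout (a log2 fold change of 0.80 ± 0.15, adjusted p = 0.00421). Its paralog Cdk2ap2 had 114 ± 4.62 and 123 ± 12.6 CPM and was not called (0.10 ± 0.09). Cdkn2aipnl (ENSMUSG00000020392.9), which carries a domain that binds the exonuclease XRN2, had 80.9, 87.7 and 78.9 CPM in wild type and 57.3, 57.7 and 57.0 in knockout. Its knockout libraries lay within 1 CPM of each other (a log2 fold change of -0.53 ± 0.08, adjusted p = 0.00131). Cdkn2aip, which holds the same domain, had 40.03 ± 2.59 and 38.4 ± 1.51 CPM (-0.06 ± 0.09).

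Ccnb1ip1, a ligase of meiotic crossover sites, had 5.59, 6.27 and 6.69 CPM in wild type and 11.9, 6.33 and 7.14 in knockout, high only in knockout replicate 1 (0.45 ± 0.25, adjusted p = 0.197). The pseudogene Ccnb1-ps had 48.9 ± 6.26 and 61.8 ± 11.1 CPM (0.33 ± 0.15, adjusted p = 0.110) and was called without knockout replicate 3 (0.0228). It is a copy of a cyclin B gene, and reads with more than 1 alignment were not counted to genes, so its count is uncertain. Ccnb2-ps (1 to 30 counts), Ccnd3-ps, Cdk3-ps and the antisense gene Cdk19os (at most 4 counts in a library) were not tested.

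**Figure D5:**
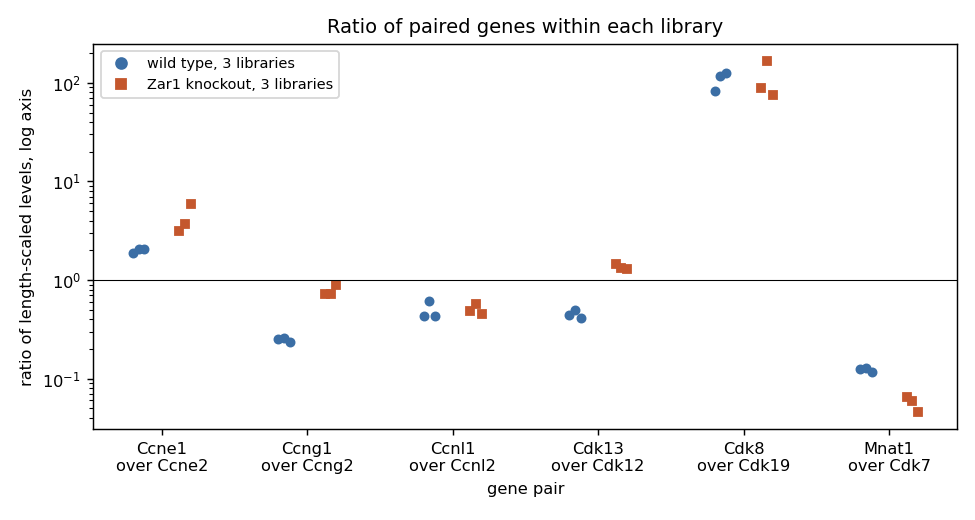
Ratio of the length-scaled levels of 6 gene pairs within each library on a log axis, 3 wild-type and 3 knockout libraries per pair. The pairs were chosen after their values were seen. Cdk13 over Cdk12 runs from 0.411 to 0.496 in wild type and from 1.30 to 1.44 in knockout, while Ccnl1 over Ccnl2 and Cdk8 over Cdk19 overlap between the groups.

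Other genes of the pathway were taken from 3 lists. Cyclins whose symbol fell outside the pattern had 3 of 12 tested genes higher, 4 lower and 5 not called, with a median log2 fold change of -0.01. Here and in the other lists the shares over all genes were 14.9% higher and 18.5% lower, and no list was tested against them. Ccni, an atypical cyclin, rose from 30.8 ± 3.73 to 63.5 ± 3.43 CPM (1.04 ± 0.11, adjusted p = 0.000194). Ccno, cyclin O, known from multiciliated cells, was the most abundant of them in CPM and fell from 1124 ± 15.98 to 772 ± 23.2 (-0.54 ± 0.06, adjusted p = 0.000254), and Ccny fell as given above. With GC and length offsets 5 of the list rose.

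The RB, E2F and MuvB genes, through which cyclin D and E kinases control S-phase transcription, had 8 of 19 tested genes higher, 2 lower and 9 not called (median 0.25), against 14.9% and 18.5% of all genes. The MuvB subunits differed among themselves. Lin52 fell from 84.4 ± 1.56 to 27.0 ± 4.28 CPM (-1.64 ± 0.12, adjusted p = 3.83e-05), while Lin37 rose from 79.4 ± 5.08 to 126 ± 8.93 (0.67 ± 0.09, adjusted p = 0.000578). Lin9 fell from 12.4 ± 1.63 to 7.08 ± 1.92 (-0.81 ± 0.22, adjusted p = 0.0229), and Rbbp4 rose from 53.4 ± 3.31 to 69.9 ± 0.840 (0.39 ± 0.08, adjusted p = 0.00716). Mybl2, which encodes the MuvB partner B-MYB, rose from 134 ± 15.6 to 219.8 ± 12.8 (0.71 ± 0.10, adjusted p = 0.000702). The number that rose was 5, 4 and 4 without wild-type replicate 1, 2 or 3 and 5 without knockout replicate 1, and 1 gene fell without wild-type replicate 3.

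Of 15 tested genes that regulate CDKs or break down cyclins and inhibitors, 6 rose, 2 fell and 7 were not called (median 0.02), against the same 14.9% and 18.5%. Cables1 and Cables2, adaptors that link CDKs to their kinases, rose from 16.6 ± 2.75 to 51.1 ± 15.0 CPM (1.62 ± 0.22, adjusted p = 0.000688) and from 87.5 ± 8.90 to 157 ± 14.4 (0.85 ± 0.10, adjusted p = 0.000399), and Mnat1 fell as given above. Skp2, the ubiquitin ligase subunit that recognises p27, rose from 34.0 ± 1.82 to 51.8 ± 12.1 (0.61 ± 0.15, adjusted p = 0.0152), and its cofactor Cks1b from 191 ± 9.85 to 264 ± 14.8 (0.47 ± 0.08, adjusted p = 0.00176). Skp2 stood highest in knockout replicate 2 (65.5 CPM, against 47.0 and 42.8 in knockout replicates 1 and 3). Skp1 (0.0197 ± 0.107) and Cul1 (0.00117 ± 0.0608), subunits of the same ligase, were not called. The part of these genes in the level of Cdkn1b was not tested. Fbxw7, which recognises cyclin E, had 38.4 ± 4.02 CPM in wild-type oocytes and 30.6 ± 4.06 in knockout and was not called (-0.33 ± 0.13, adjusted p = 0.0853). Without wild-type replicate 3, 3 genes of the list rose, and without wild-type replicate 2, 1 fell.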

How the data were processed

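The authors deposited raw read counts per gene, 1 table per library and not normalized. The submitters' processing notes name HTSeq 0.13.5, STAR 2.7.8a, cutadapt 2.8, bcl2fastq 2.20.0.422 and build mm39. No annotation release or strand setting is given in the sources used here. Per the labels' protocols libraries were made from 10 oocytes with a QIAseq FX single cell kit.

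Symbols, exon lengths, GC content and transcript ends came from GENCODE M21 (GRCm38), and 52093 of 53700 rows had a symbol. Rows of the counting summary held between 4.84% and 5.70% of reads outside genes, 4.21% to 4.42% in more than 1 gene and 13.9% to 15.0% with more than 1 alignment, and stayed out of library sizes and tests. The genotype test was that of edgeR 4.0.16 under R 4.3.3 (TMM, filterByExpr, glmQLFit and glmQLFTest, two-sided, 16473 genes). Standard errors are the absolute log2 fold change over the root of F. Figures and transcript ends used Python 3.11.15. The steps were tested on simulated data. Libraries of a group were not duplicates (chi-square over degrees of freedom of at least 13.8).

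Members and lists were chosen with earlier results of these data known. Values in every library are given for called members and for the 3 of highest level per kilobase in each class, and 3 called genes were named from each list. Partner subunits, Skp2, Cks1b, Skp1, Cul1, Fbxw7, Lin9, Rbbp4 and the 6 gene pairs were chosen after their values were seen. Lin54 was not analysed here. Alternatives were other scaling factors, filters, DESeq2 1.42.0, limma-voom (limma 3.58.1), a test against a change of 1.5-fold, an adjusted p of 0.01, a replicate block, GC and length offsets (99.7% of genes covered) and leaving out each library.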

Additional observations from a re-analysis of the deposited data

How the results depend on the processing

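Against 11 rises and 5 falls among the members, there were 7 rises with library sizes alone, 4 and 2 at an adjusted p of 0.01 and 1 and 1 (Cdk13 and Ccng2) against a 1.5-fold change. GC and length offsets left 2 falls. Leaving out a library gave 5 to 9 rises and 2 to 7 falls. Over all genes 33.4% were called in the main fit. That share was 32.6% with library sizes alone, 18.4% at an adjusted p of 0.01 and 9.01% against a 1.5-fold change. With GC and length offsets it was 31.5%, and without a library 22.2% to 33.2%. Over the 3 pathway lists, 17 genes rose and 8 fell, against 8 rises at an adjusted p of 0.01, 3 and 3 against a 1.5-fold change, and 9 to 16 rises and 7 to 10 falls without a library. Same-numbered libraries did not deviate together (correlations of -0.04 to -0.01), so the numbers were not taken as pairs; with the replicate number as a block 7 members rose and 5 fell, Ccng1 (adjusted p = 0.0673), Cdk5 (0.0612), Cdk7 (0.0536) and Cdk10 (0.0753) losing their calls. Of the members not called, Cdk11b changed sign under RLE (0.000614) or upper-quartile factors (0.0354), in DESeq2 (0.000619) and without a library (-0.22 to 0.10), Cdkn1c with GC and length offsets (-0.12), and Cdkn2d without a library (-0.00442 to 0.37). The estimates of Ccnd1, Ccnd2, Cdk2, Cdk15, Cdk17, Cdk19, Cdkn2c, Cdk2ap2 and Cdkn2aip, also not called, lay on both sides of zero over the alternatives, the widest being Ccnd2 (-0.79 to 0.61). The cause was not tested. In the remaining alternatives for these counts they stayed within 1.5 times. Fewer reads lie behind the members under about 5 CPM in wild type, which include Ccnd1, Ccnd3, Cdkn1c, Cdkn2c and Cdkn2d, and this limits what depth can show for them.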
